A study of Mus musculus with 13 samples.

Results

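Krt7, Krt8, Krt18, Krt19 and Krt20 are the keratins of simple epithelia, and Krt8, Krt18 and Krt20 are also the classical keratins of Merkel cells, the touch receptor cells of the skin. Their rows were taken from the raw count table by gene name: 5 of 25746 genes, all 5 of which passed the filter on low counts. They were read library by library in sorted interfollicular keratinocytes, the epidermal cells between the hair follicles, of C57/BL6 mice. The 13 libraries fall into 4 groups. K14Cre/+ Il12rb2fl/fl mice, called Il12rb2-deleted here, gave 3 libraries after Aldara, a cream with 5% imiquimod put on the skin for 1 day, and Il12rb2fl/fl mice without Cre, called floxed control, gave 3 libraries after Aldara. Untreated Il12rb2-deleted mice gave 4 libraries and untreated floxed control mice gave 3. All mice carried the floxed Il12rb2 alleles, so the genotypes differ in K14Cre, which is driven by the keratin 14 promoter of basal keratinocytes. A vehicle cream and a K14Cre group with unfloxed alleles were not analysed here. Age and sex are not given in the labels, which also do not say whether replicates are separate animals, so every p-value refers to the spread among these libraries alone, part or all of which may be technical.

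Keratins form filaments from pairs of a type II and a type I chain. In simple epithelia, such as the lining of glands, ducts and the gut, the type II chains Krt8 and Krt7 pair with the type I chains Krt18, Krt19 and Krt20. Stratified epidermis is instead built from Krt5 and Krt14 in the basal layer and Krt1 and Krt10 above it, and in skin simple keratins are known from Merkel cells, parts of the hair follicle and sweat glands.

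Read depth was between 5830034 and 22232478 counts per library. Levels are given as CPM, a gene's count per library size after scaling by the trimmed mean of M-values (TMM). Basal keratins were abundant in every library, Krt14 at 6420 to 32600 CPM and Krt5 at 2760 to 17100 CPM. Il12rb2, the targeted receptor gene, lay between 0 and 1.64 CPM in Il12rb2-deleted and 1.98 and 8.14 CPM in floxed control libraries after Aldara, and between 8.52 and 25.6 CPM in Il12rb2-deleted and 17.1 and 78.8 CPM in floxed control libraries without treatment. The untreated genotypes overlapped. Which exons are floxed is not in the labels, so counts over the whole gene may include reads outside the deleted part. Gm10800, a predicted gene whose share differed widely, took 14.17% of counts in untreated floxed control replicate 2, and 5.211% and 10.35% in untreated Il12rb2-deleted replicates 1 and 2. It took at most 2.219% elsewhere.

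In genome build GRCm38, the 2 type II genes and Krt18 lie in the type II cluster on chromosome 15. Krt7 (ENSMUSG00000023039) is at chr15:101411043-101430313 on the plus strand, Krt8 (ENSMUSG00000049382) at chr15:101996698-102004482 on the minus strand and Krt18 (ENSMUSG00000023043) at chr15:102028180-102032027 on the plus strand. Krt8 and Krt18, which encode the usual filament pair of simple epithelia, stand 23697 bases apart and are transcribed away from each other. Krt19 (ENSMUSG00000020911) is at chr11:100140810-100148665 and Krt20 (ENSMUSG00000035775) at chr11:99428403-99438150, both on the minus strand in the type I cluster of chromosome 11. Counts cover exons of the whole gene. Krt7 overlaps Gm671 and Krt8 overlaps Gm36026 on the opposite strand, and because the libraries carry no strand, reads of such overlapping genes cannot be told apart.

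Krt7, Krt8, Krt18 and Krt19 moved together across libraries and Krt20 did not. Promoters are shown side by side for all but Krt19, whose promoter was not among the sequences used. They run from 250 bases before to 30 bases after the RefSeq start, 5′ to 3′ on the gene's strand, from RefSeq on GRCm38.p6. Capitals mark matches on either strand to a TATA box (TATAAA), a GC box (GGGCGG) or an ETS core (AGGAAG); an AP-1 site (TGANTCA) was also searched for. Where matches overlap, as for the TATA box matches of Krt8 on both strands, 1 run of capitals covers them.
Krt7, chr15:101412153-101412432, plus strand: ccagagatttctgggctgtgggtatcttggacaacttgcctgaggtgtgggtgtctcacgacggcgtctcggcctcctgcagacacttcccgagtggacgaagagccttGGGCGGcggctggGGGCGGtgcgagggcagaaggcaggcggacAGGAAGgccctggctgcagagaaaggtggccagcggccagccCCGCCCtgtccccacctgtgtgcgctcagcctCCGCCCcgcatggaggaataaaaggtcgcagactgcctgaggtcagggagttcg
Krt8, chr15:102004313-102004592, minus strand: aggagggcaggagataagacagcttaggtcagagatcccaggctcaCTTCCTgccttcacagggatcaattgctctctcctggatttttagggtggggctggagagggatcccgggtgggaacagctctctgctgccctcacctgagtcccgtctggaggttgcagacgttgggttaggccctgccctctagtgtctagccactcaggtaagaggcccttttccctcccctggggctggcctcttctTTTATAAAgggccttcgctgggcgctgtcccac
Krt18, chr15:102027966-102028245, plus strand: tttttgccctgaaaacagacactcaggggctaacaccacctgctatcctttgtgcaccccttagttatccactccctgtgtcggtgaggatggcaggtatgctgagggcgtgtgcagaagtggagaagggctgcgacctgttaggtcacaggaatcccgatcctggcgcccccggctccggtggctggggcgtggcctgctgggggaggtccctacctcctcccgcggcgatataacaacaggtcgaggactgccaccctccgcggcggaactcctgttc
Krt20, chr11:99438124-99438403, minus strand: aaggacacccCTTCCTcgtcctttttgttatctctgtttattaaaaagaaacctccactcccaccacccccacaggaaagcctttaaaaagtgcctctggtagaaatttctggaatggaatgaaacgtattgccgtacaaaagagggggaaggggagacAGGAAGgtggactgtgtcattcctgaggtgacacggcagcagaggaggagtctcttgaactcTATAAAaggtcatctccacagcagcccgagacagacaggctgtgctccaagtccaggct
The TATA box was present in Krt8 and Krt20 and in 13.1% of 32851 mouse promoter windows of the same length. The Krt8 matches began at bases 248 and 250 of the window and so lie across the RefSeq start. The Krt20 match began at base 222, before the start. The GC box was present 4 times in Krt7 and in 34.7% of windows. The ETS core was present in Krt7, Krt8 and Krt20 and in 32.9% of windows, and the AP-1 letters were in 7.46% of windows and in none of these 4. Krt18 held none of the searched letters in this window. So Krt7, Krt8 and Krt18 shared no searched match across all of them, and Krt19, which moved with them, was not searched. The RefSeq starts used for Krt7, Krt8 and Krt18 lie inside the gene spans given above, and the Krt7 window lies wholly inside its span. These windows are therefore not the stretches just before those spans. Whether the matches bear on the shared variation was not tested. A match is a run of letters and not a measured site.

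Krt8, the type II chain that simple epithelia make first and most widely, varied widely between replicates. Its level was 6.24, 5.00 and 0.821 CPM in Aldara-treated Il12rb2-deleted libraries, and 10.5, 6.74 and 208 CPM in Aldara-treated floxed control libraries. It was 439, 3.96, 17.5 and 4.04 CPM in untreated Il12rb2-deleted libraries and 76.5, 7.89 and 84.5 CPM in untreated floxed control libraries. Untreated Il12rb2-deleted replicate 1 and Aldara-treated floxed control replicate 3 were the highest. The Aldara-treated Il12rb2-deleted libraries lay just below both floxed control groups, the nearest values being 6.24 and 6.74 CPM, and overlapped the untreated Il12rb2-deleted libraries, while the other groups overlapped one another.

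Krt18, the type I partner of Krt8, followed the same libraries. It had 8.59, 4.50 and 1.37 CPM in Aldara-treated Il12rb2-deleted libraries and 6.45, 6.39 and 289 CPM in Aldara-treated floxed control libraries. Without treatment it had 399, 3.76, 24.3 and 1.41 CPM in Il12rb2-deleted libraries and 101.2, 0.640 and 89.6 CPM in floxed control libraries. The same replicates stood high, and all groups overlapped.

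Krt7, the second type II chain, which is typical of ducts and glands, had 5.52, 3.86 and 0.752 CPM in Aldara-treated Il12rb2-deleted libraries and 4.15, 6.39 and 47.9 CPM in Aldara-treated floxed control libraries. Untreated Il12rb2-deleted libraries had 165, 0.990, 20.2 and 1.22 CPM and untreated floxed control libraries 79.1, 3.73 and 32.7 CPM. In 3 of the 5 libraries where Krt8 was highest, Krt7 was the lowest of these first 4 keratins, and its groups overlapped too.

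Krt19, the smallest keratin, which lacks most of the tail domain and marks ducts and part of the hair follicle, differed from the others in a single group. Aldara-treated Il12rb2-deleted libraries had 0.409, 0 and 0 CPM, which are 4, 0 and 0 counts. Aldara-treated floxed control libraries had 6.96, 6.39 and 141 CPM, untreated Il12rb2-deleted libraries 463, 3.57, 34.5 and 5.19 CPM, and untreated floxed control libraries 126, 2.67 and 153 CPM. Every Aldara-treated Il12rb2-deleted library lay below all 10 others, while the other 3 groups overlapped one another.

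Krt20, a type I chain of Merkel cells and of the gut lining, was low in all groups, at most 5.99 CPM, and absent from the counts of 7 libraries. It had 0.205, 1.57 and 0.274 CPM in Aldara-treated Il12rb2-deleted libraries, which are 2, 22 and 4 counts, and 0, 3.02 and 5.99 CPM in Aldara-treated floxed control libraries, which are 0, 26 and 123 counts. It had no count in any of the 4 untreated Il12rb2-deleted libraries, and 0, 1.28 and 0 CPM in untreated floxed control libraries, where the value above 0 rests on 12 counts. A count of 0 allowed up to 0.594 CPM in the shallowest untreated Il12rb2-deleted library (3 counts), so levels of that size were not detectable there.

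**Figure D1:**
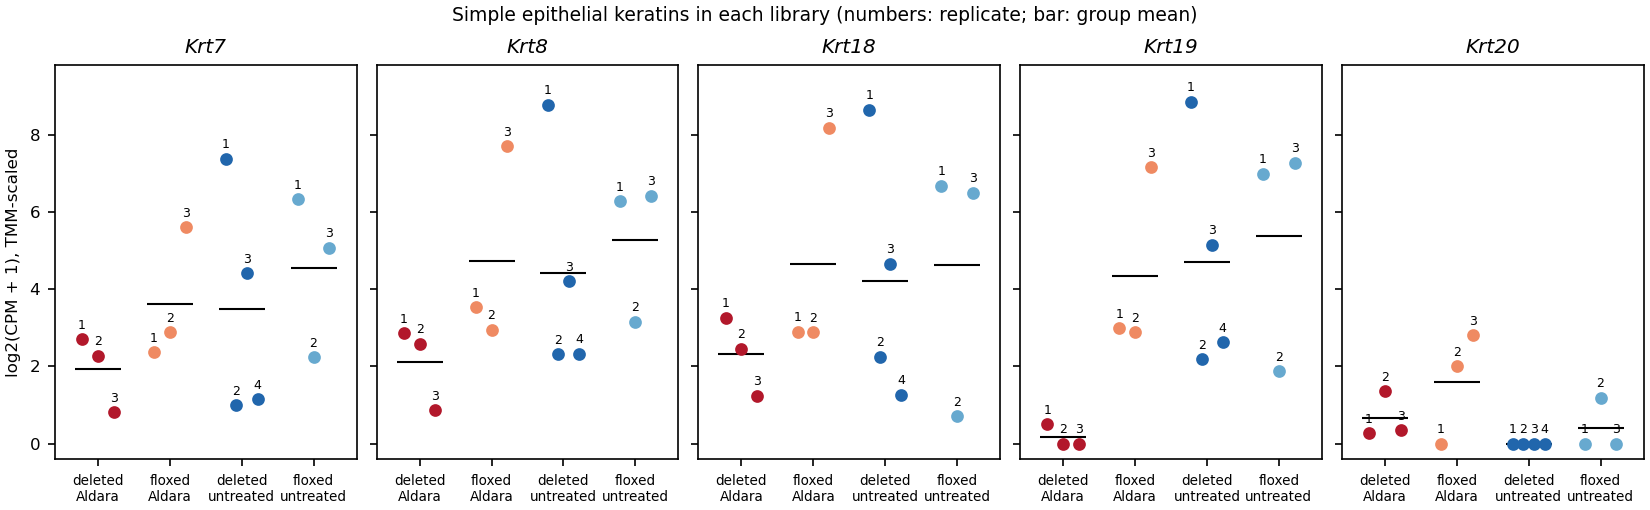
Level of each keratin in every library as log2(CPM + 1), by group, with the replicate number above each point and a bar at the mean of the log2 values. Krt7, Krt8, Krt18 and Krt19 are high in the same 5 libraries, with Krt8 at 439 CPM in untreated Il12rb2-deleted replicate 1, and Krt19 is at or near 0 in the 3 Aldara-treated Il12rb2-deleted libraries.

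Krt7, Krt8, Krt18 and Krt19 varied together from library to library. The 5 highest libraries were the same for all 4 genes: untreated Il12rb2-deleted replicates 1 and 3, untreated floxed control replicates 1 and 3, and Aldara-treated floxed control replicate 3. In these libraries each of the 4 genes was at 17.5 CPM or more, and in the other 8 none was above 10.54 CPM. After the group means were taken out, Pearson's r of log2 CPM over 13 libraries lay between 0.938 for Krt7 with Krt19 and 0.979 for Krt18 with Krt19. Over the 6 pairs of these genes, Spearman's rho was 0.916 to 0.988, and exact within-group permutation over 5184 arrangements gave p of 0.000386 to 0.0027 for r (0.00386 to 0.0045 after Benjamini-Hochberg adjustment over 10 pairs). Without the 2 libraries farthest from the median, r was 0.898 to 0.963. Krt20 did not follow them. Its r was -0.116 with Krt19 and 0.0575 with Krt8, and the exact permutation p was 0.87 to 0.954 over its 4 pairs.

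**Figure D2:**
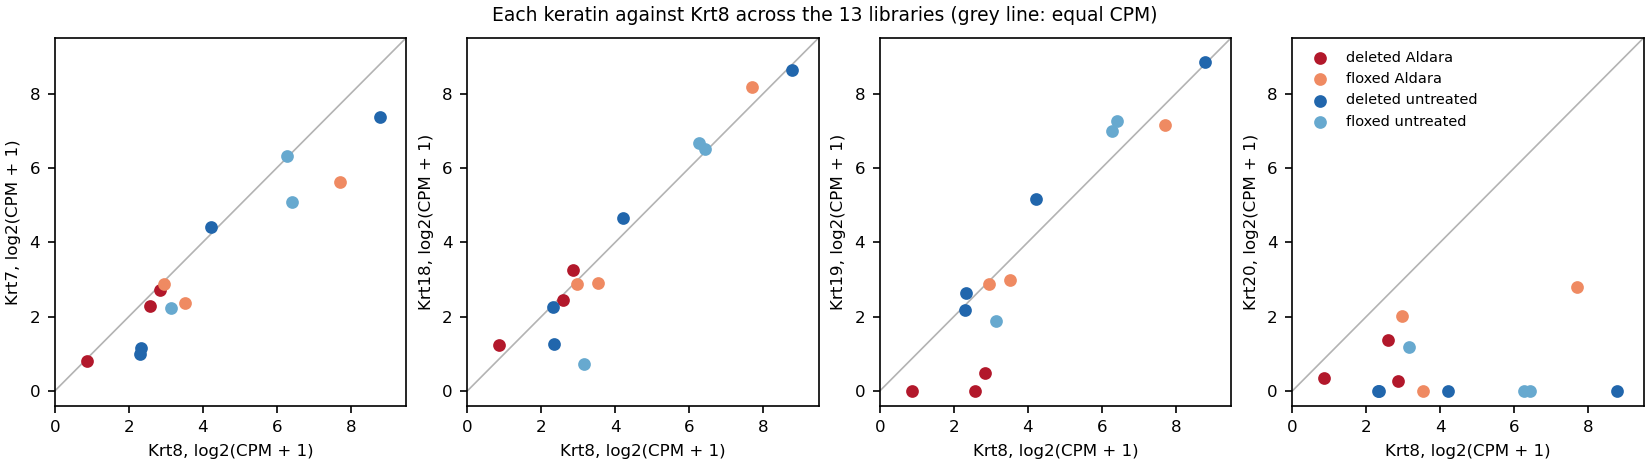
Krt7, Krt18, Krt19 and Krt20 against Krt8 in the 13 libraries, each axis in log2(CPM + 1) and the grey line at equal CPM. Krt18 and Krt19 lie mostly along the line apart from the Aldara-treated Il12rb2-deleted libraries of Krt19, Krt7 lies mostly below it, and Krt20 is at 5.99 CPM or less at every level of Krt8.

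Per kilobase of exon, which allows levels of different genes to be compared, Krt8 was below Krt18 in 10 of the 13 libraries. The ratio of Krt8 to Krt18 per kilobase was 0.528 to 0.807 in the 5 high libraries. It was 9.05 in untreated floxed control replicate 2, where Krt18 was at 0.640 CPM. Krt19 per kilobase was 0.379 of Krt18 in Aldara-treated floxed control replicate 3 and 0.898 of it in untreated Il12rb2-deleted replicate 1. It was 0.0369 of Krt18 in Aldara-treated Il12rb2-deleted replicate 1, and 0 in the other two of that group. Krt7 per kilobase is understated, since its merged exons span 7049 bases against 4094 in its longest coding transcript.

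The 5 simple keratins were a small part of the keratin mRNA. They made up 0.0124% to 3.8% of all keratin counts. The highest shares were 3.8% in Aldara-treated floxed control replicate 3 (95% exact binomial interval 3.74% to 3.86%), 2.08% in untreated Il12rb2-deleted replicate 1 (2.05% to 2.11%) and 1.22% in untreated floxed control replicate 1 (1.19% to 1.26%). The lowest, 0.0124% (0.00912% to 0.0165%), was in Aldara-treated Il12rb2-deleted replicate 3. These intervals cover counting error only. In Aldara-treated floxed control replicate 3, Krt8 per kilobase reached 8.44% of the level of Krt5. In bulk libraries fewer cells of a type and less RNA per cell cannot be told apart.

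The effect of Aldara was compared in each genotype with edgeR's quasi-likelihood test, with adjustment over all 16051 genes tested and a call at an adjusted p under 0.05. In Il12rb2-deleted mice Krt19 fell, at a log2 fold change of -10.08 (SE 2.58, edgeR adjusted p = 0.0158, n = 3 and 4). It was the only 1 of the 5 keratins called, in a comparison where 7.69% of genes were called lower and 15.5% were called in either direction. All 3 Aldara-treated libraries were below all 4 untreated libraries, and the two-sided exact permutation p of 0.0286 is the smallest that 35 arrangements can give. Over the group's summed counts, Krt19 was at 0.104 CPM (95% exact Poisson interval 0.0284 to 0.267) after Aldara and 131 CPM (128 to 135) without it, so its fitted fold change rests on 4 counts in the Aldara group. Markers of other cell types moved in the same comparison. Of 7 fibroblast markers 6 fell, and their summed level was 65.05 to 246.7 CPM in Aldara-treated and 1006 to 2385 CPM in untreated Il12rb2-deleted libraries. Of 5 tested nerve and glia markers 1 fell, with summed levels of 32.02 to 47.76 CPM in Aldara-treated and 67.19 to 172.9 CPM in untreated libraries. T cell markers summed to 8.352 to 11.25 CPM in Aldara-treated and 12.87 to 29.16 CPM in untreated libraries, with none of 4 called. In floxed controls fibroblast markers summed to 143.2 to 406.0 CPM in Aldara-treated and 1031 to 1219 CPM in untreated libraries, where Krt19 was not called. The part of these cells in the Krt19 difference was not tested. The Krt19 call was lost without any 1 of the 3 Aldara-treated libraries (adjusted p = 0.0537, 0.0634 and 0.0597 for replicates 1, 2 and 3) and with limma voom, where the log2 fold change was -8.42 (adjusted p = 0.503).

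Krt7, Krt8 and Krt18 were lower in Aldara-treated than untreated Il12rb2-deleted libraries by the fit, but did not pass. Krt8 had a log2 fold change of -4.87 (SE 1.78, approximate 95% interval -8.36 to -1.39, edgeR adjusted p = 0.0773). Krt18 had -4.50 (SE 1.97, interval -8.36 to -0.645, adjusted p = 0.142) and Krt7 -3.82 (SE 1.58, interval -6.91 to -0.727, adjusted p = 0.120). These values rested on untreated Il12rb2-deleted replicate 1. Without it the log2 fold changes were -1.12 for Krt8, -1.07 for Krt18 and -1.18 for Krt7, and that of Krt19 was -6.96. Krt20 had a log2 fold change of 6.22 (SE 2.55, adjusted p = 0.127), a fitted value against a group at 0. Over summed counts it was at 0.729 CPM in Aldara-treated Il12rb2-deleted libraries, 11-fold the 0.0664 CPM that 3 counts over the untreated group allow. This ratio leaves out the counting error of the Aldara group and the spread between its libraries. Replicate 2 held 22 of the 28 counts. Without it the ratio was 3.7-fold, on 6 counts, and the fitted log2 fold change was 4.73. All 3 Aldara-treated libraries had at least 2 counts and all 4 untreated libraries had none (exact permutation p = 0.0286, the smallest possible).

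In floxed control mice none of the 5 keratins was called after Aldara, where 7.05% of genes were called. The log2 fold changes were -0.98 (SE 1.43) for Krt7, 0.42 (SE 1.51) for Krt8, 0.66 (SE 1.71) for Krt18 and -0.86 (SE 1.54) for Krt19, with edgeR adjusted p of 0.774 to 0.920. The interval of the Krt8 difference, -2.54 to 3.38, covers changes of several fold either way. Krt20 had 2.85 (SE 2.21, adjusted p = 0.529). With replicate 3 of the Aldara-treated floxed controls left out, Krt8 was at -2.70 and Krt18 at -3.32, so the direction turned with 1 library, and Krt7 was at -2.88 and Krt19 at -3.82.

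Over both genotypes, Krt19 was again the only member called, at -5.47 (SE 1.503, edgeR adjusted p = 0.0146, 6 against 7 libraries), beside 11.9% of genes called lower and 24.9% called in all. The comparison shares its Il12rb2-deleted libraries with the preceding test. Permuting libraries within genotype gave an exact p of 0.0514 over 700 arrangements, and limma voom gave -4.72 with an adjusted p of 0.398. Without untreated Il12rb2-deleted replicate 1 it was at -3.91, and the call held with each single library left out (adjusted p of 0.042 or less). Krt7 was at -2.40 (SE 1.05, adjusted p = 0.113), Krt8 at -2.23 (SE 1.12, adjusted p = 0.169) and Krt18 at -1.92 (SE 1.24, adjusted p = 0.299). Krt20 was at 4.53 (SE 1.69, adjusted p = 0.0710), with counts in 5 of 6 Aldara-treated libraries and in 1 of 7 untreated libraries, and passed with DESeq2 (4.05, adjusted p = 0.0387), which called 14.5% of genes higher, and with edgeR without untreated floxed control replicate 2 (7.31, adjusted p = 0.0272).

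The deletion was compared next. No gene of the 16051, and so 0.0% of the background and no simple keratin, was called by edgeR between genotypes without treatment, after Aldara or over both treatments, or for the interaction, the difference between the 2 Aldara effects. At an unadjusted p under 0.05 there were 599, 690, 889 and 539 genes in these 4 comparisons. DESeq2 called 18, 30, 18 and 3 genes in them, and limma voom none. After Aldara, Krt19 was lower in Il12rb2-deleted than in floxed control libraries by a log2 fold change of -8.80 (SE 2.55, interval -13.8 to -3.79, unadjusted p = 0.00356, adjusted p = 0.982 by edgeR), and all 3 deleted libraries lay below all 3 floxed control ones. The exact permutation p was 0.1, the smallest that 3 against 3 can give, and DESeq2 called the gene (-8.62, adjusted p = 0.0329) beside 0.136% of genes called lower.

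For the same comparison Krt8 had -4.25 (SE 1.76, edgeR adjusted p = 0.982) and Krt18 -4.41 (SE 1.997, adjusted p = 0.982), and without Aldara-treated floxed control replicate 3 these were -1.14 and -0.44. Without treatment, the log2 fold changes between Il12rb2-deleted and floxed control libraries were 0.29 for Krt7, 1.04 for Krt8, 0.75 for Krt18 and 0.43 for Krt19, with SE of 1.33 to 1.62. They turned to -2.34, -2.71, -2.68 and -2.69 without untreated Il12rb2-deleted replicate 1. For the interaction, Krt19 had -9.22 (SE 2.98, unadjusted p = 0.00730, edgeR adjusted p = 1.00), so the Krt19 call in Il12rb2-deleted mice is not shown to differ from the effect in floxed controls.

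**Figure D3:**
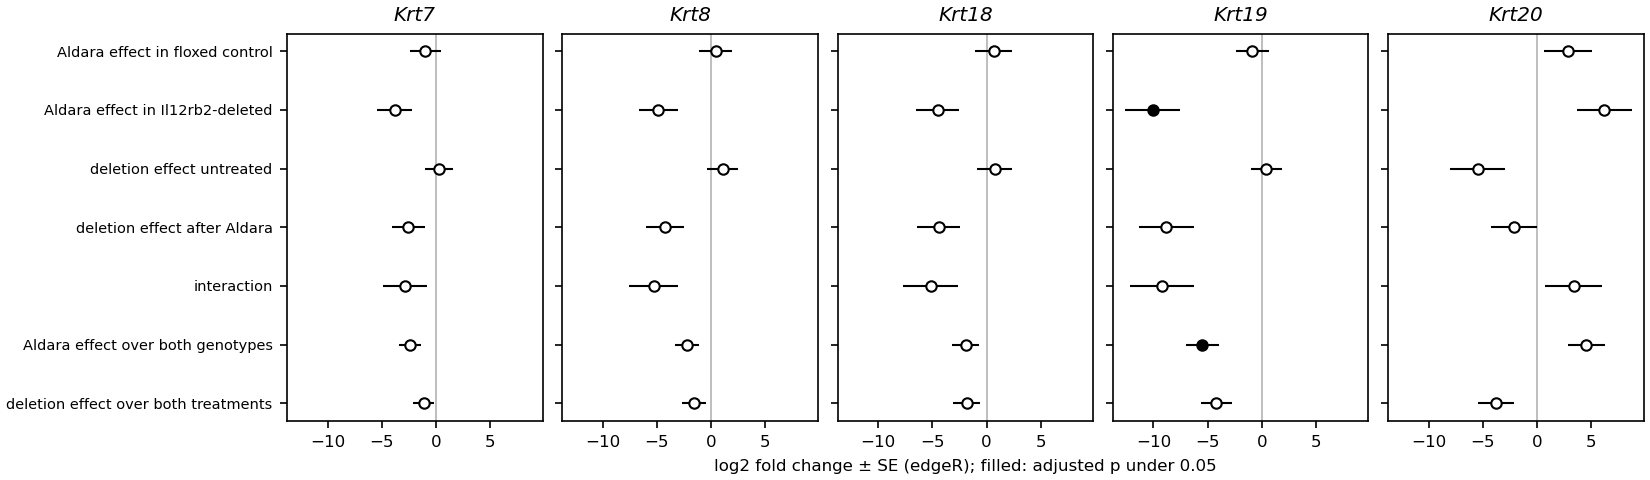
Fitted log2 fold change of each keratin in the 7 comparisons, with bars of 1 SE on either side and filled points for an edgeR adjusted p under 0.05. Krt19 is filled in Aldara against untreated within Il12rb2-deleted mice (-10.08) and over both genotypes (-5.47), and no other point is filled.

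The other keratins of the table give the setting. Of 48 further keratin genes 29 passed the filter on low counts. In Il12rb2-deleted mice 8 of them fell after Aldara and none rose, beside 7.69% of all genes called lower and 7.81% higher. In floxed controls 6 fell and 1 rose, beside 2.9% lower and 4.15% higher. Over both genotypes 9 fell and 2 rose, beside 11.9% lower and 24.9% called in either direction. Among those that fell were Krt10, the main suprabasal type I keratin (log2 fold change -4.15, SE 0.418, edgeR adjusted p = 2.1e-05), Krt77 (-4.02), Krt78 (-3.71), Krt80 (-2.71), the basal keratin Krt15 (-2.43) and Krt5 (-1.37, SE 0.222, adjusted p = 0.000431). Krt19, at -5.47, had a larger fitted fall than these 6 and a wider SE of 1.503.

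The name of the set holds Merkel cells, and their defining genes were checked. Of 18 Merkel cell markers, all had a count somewhere and 12 passed the filter on low counts. Their summed level was 12.93 to 28.13 CPM in Aldara-treated Il12rb2-deleted, 15.77 to 63.32 CPM in Aldara-treated floxed control, 11.85 to 38.4 CPM in untreated Il12rb2-deleted and 19.81 to 74.95 CPM in untreated floxed control libraries. Atoh1, the transcription factor that specifies Merkel cells, had no count in 6 libraries and at most 44 counts. Sox2, another of their transcription factors, had at most 26 counts. Piezo2, the mechanosensitive channel, had 17 to 277 counts. The median r of the 12 genes with Krt8 was 0.00765, beside -0.0312 over all genes tested. Piezo2 (r = 0.739) was the highest of them. Isl1 had at most 49 counts and Pou4f3 at most 246, or 12.0 CPM. Apart from Piezo2, no tested marker was above r = 0.341 with Krt8, the value of Chga. Several of these r rest on few counts, which limits what they can show: Chgb had no count in 7 libraries and Pou4f3 none in 4. Of markers with counts in every library, Ncam1 was at 0.102 and Cacna1a at -0.0792, beside 0.739 for Piezo2. As a set, these markers did not bear out the Merkel part of the label for Krt8 and the keratins that varied with it. Whether Merkel cells held these keratins was not tested.

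Of the 12 tested Merkel cell markers, 1 rose after Aldara in Il12rb2-deleted mice and over both genotypes, and none was called in floxed controls. This is 1 of 12 beside 7.81% of all genes called higher in Il12rb2-deleted mice, a share near the background. Over both genotypes, 24.9% of all genes were called in either direction. The marker called was Chga, which encodes the secretory granule protein chromogranin A (6.14, SE 1.67, edgeR adjusted p = 0.0215 in Il12rb2-deleted mice). Chga had 2, 0, 0 and 0 counts in untreated Il12rb2-deleted libraries against 77, 19 and 34 after Aldara. Its fitted fold change is thus measured against a group near 0. Piezo2 was at -1.46 (SE 0.825, edgeR adjusted p = 0.269) in Il12rb2-deleted mice. The median log2 fold change of the 12 genes was 0.12 in Il12rb2-deleted mice and -0.44 in floxed controls, beside -0.09 and -0.13 over all genes.

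Krt20, which Krt8 did not follow, ran closer to the Merkel cell transcription factors Pou4f3 and Isl1, but not to Atoh1, which specifies these cells (r = -0.00496). The listed factors Sox2, Insm1 and Gfi1 did not pass the filter and have no r. Pou4f3 had 0, 4.50 and 0.137 CPM in Aldara-treated Il12rb2-deleted libraries, 2.30, 8.48 and 12.0 CPM in Aldara-treated floxed control libraries, 0.257, 0, 0 and 0.897 CPM in untreated Il12rb2-deleted libraries and 0.295, 1.81 and 0 CPM in untreated floxed control libraries. The 3 highest libraries were the same for Krt20 and Pou4f3 and in the same order. The within-group r of Krt20 was 0.713 with Pou4f3 and 0.743 with Isl1 over 13 libraries, a description of sparse counts, since 7 libraries had no Krt20 count. Both genes were picked from the 18 markers after their values were seen. Over the 12 tested markers, r with Krt20 ran from -0.00496 (Atoh1) to 0.743 (Isl1), with Syp at 0.678 and Chga at 0.325. Outside the Merkel list, Scd3 was at 0.596 and Areg at 0.575, and Cecr2, which is on no marker list, was at 0.875. No median r over all genes is given for Krt20, and a link to Merkel cells was not tested. Pou4f3 was at 2.87 after Aldara over both genotypes and did not pass with edgeR (adjusted p = 0.117) but did with DESeq2 (2.89, adjusted p = 0.0464).

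**Figure D4:**
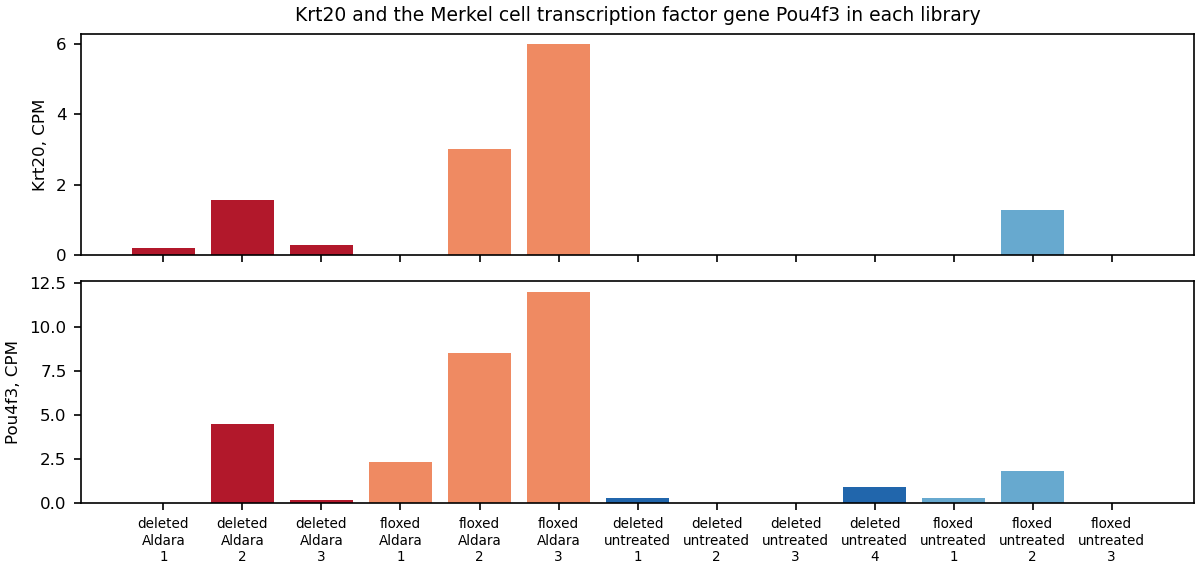
CPM of Krt20 (top) and Pou4f3 (bottom) in each of the 13 libraries, coloured by group, with both axes from 0. Aldara-treated floxed control replicates 3 and 2 and Aldara-treated Il12rb2-deleted replicate 2 are the 3 highest libraries for both genes, with Krt20 at 5.99, 3.02 and 1.57 CPM.

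As lists, hair follicle and sebaceous gland markers had lower r with Krt8. The median r was 0.139 over 10 tested bulge and outer root sheath markers, of which Lhx2 was highest at 0.621, and -0.415 over 15 sebaceous gland markers, of which Scd1 was lowest at -0.726 and Soat1 was at -0.666. Of the 15 sebaceous markers 11 rose over both genotypes and none fell, beside 24.9% of all genes called in either direction and 11.9% called lower. Among them were Far2, an enzyme of wax synthesis (log2 fold change 2.94), the lipid droplet coat gene Plin2 (2.75) and the fatty acid elongase gene Elovl3 (3.49). Their summed level was 4827 to 6608 CPM in Aldara-treated Il12rb2-deleted and 5387 to 9575 CPM in Aldara-treated floxed control libraries, beside 981.9 to 3140 CPM in untreated Il12rb2-deleted and 1542 to 3152 CPM in untreated floxed control libraries. Their part in the fall of Krt19 was not tested. Of the genes on the bulge list, the stem cell surface gene Cd34 fell over both genotypes (-1.74, edgeR adjusted p = 0.00860). Tcf3 (0.61) and Sox9 (1.18, adjusted p = 0.0245) rose, so that 3 of 10 were called beside the same 24.9%. Tcf3 was matched by symbol alone and may not be the follicle factor known by that name. It was at 40.68 to 119.1 CPM over the 13 libraries, and the 3 of 10 and the list's median r include it. The Sox9 call was lost without the 2 libraries highest in Krt8, where it was at 0.54 (edgeR adjusted p = 0.160). It was also lost with each of 4 single libraries left out, from either treatment (edgeR adjusted p up to 0.0974). The same held without the 3 libraries high in Gm10800 (edgeR adjusted p = 0.0877).

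The genes whose levels were most like those of each keratin were first of all the other keratins of the set. For Krt8 they were Krt18 (r = 0.950), Krt7 (0.948) and Krt19 (0.943), and for Krt19 they were Krt18 (0.979), Krt8 (0.943) and Krt7 (0.938). The third gene for Krt7 was Slc12a2, which encodes a sodium, potassium and chloride cotransporter of secretory epithelia (r = 0.939), and the second for Krt18 was Cited1, a transcriptional cofactor gene (r = 0.964). All r are over 13 libraries after group means were taken out, for genes whose aveLogCPM in edgeR, which is close to the log2 of the mean CPM, was 3 or more. For Krt20 they were Cecr2 (0.875), Klhl20 (0.866) and Nrip1 (0.854), which rest on few Krt20 counts.

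Because several such genes are known from glands, 25 genes of luminal gland cells were listed after these values were seen. Their median r with Krt8 was 0.636 over 24 tested genes, and 9 of the 24 exceeded 0.8. Genes already seen to have a high r were put on the list, so both values partly reflect that choice. Of all 16051 genes 35 exceeded 0.8, a number that includes these 9 and 4 of the keratins, with Krt8 itself. No test was made of a list chosen in this way. Aqp5, the water channel of secretory glands, had 0, 0 and 0 CPM in Aldara-treated Il12rb2-deleted libraries, 3.90, 0 and 29.0 CPM in Aldara-treated floxed control libraries, 45.1, 0, 3.42 and 0.513 CPM in untreated Il12rb2-deleted libraries and 42.0, 0.213 and 27.4 CPM in untreated floxed control libraries. Its 4 highest libraries are among the 5 highest of Krt8. Ltf, which encodes the secreted protein lactoferrin, had no count in the 3 Aldara-treated Il12rb2-deleted libraries and 1.53, 0.232 and 54.2 CPM in Aldara-treated floxed control ones. It had 14.8, 0.594, 5.75 and 0 CPM in untreated Il12rb2-deleted libraries and 22.2, 0.427 and 10.3 CPM in untreated floxed control libraries.

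Others of the 9 followed with less uniform levels. Wfdc18 reached 169 CPM in Aldara-treated floxed control replicate 3 and 17.3 CPM in untreated Il12rb2-deleted replicate 1, although Krt8 was higher in the second. Wfdc2 was at 83.7 CPM in untreated Il12rb2-deleted replicate 1 and 72.3 CPM in untreated floxed control replicate 1, against 14.7 CPM in Aldara-treated floxed control replicate 3. The tight junction gene Cldn3 was at 73.5 CPM in Aldara-treated floxed control replicate 3 and 39.8 CPM in untreated Il12rb2-deleted replicate 1. The milk protein genes Lalba, Wap and Csn2 stayed at or below 3.63 CPM in every library, and Csn1s1 reached 6.72 CPM. The casein gene Csn3 reached 86.4 CPM in Aldara-treated floxed control replicate 3 and 14.7 CPM in untreated Il12rb2-deleted replicate 1 (r with Krt8 0.789). Prlr, Esr1 and Gata3 were present in every library and had r with Krt8 of 0.545, -0.236 and 0.170. The summed level of all 25 genes was 394.6 to 822.5 CPM in Aldara-treated Il12rb2-deleted, 784.2 to 1697 CPM in Aldara-treated floxed control, 1176 to 2433 CPM in untreated Il12rb2-deleted and 1591 to 1685 CPM in untreated floxed control libraries, and their part in the Krt19 difference was not tested. The 4 co-varying keratins are called here by their gene names, with no cell type.

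**Figure D5:**
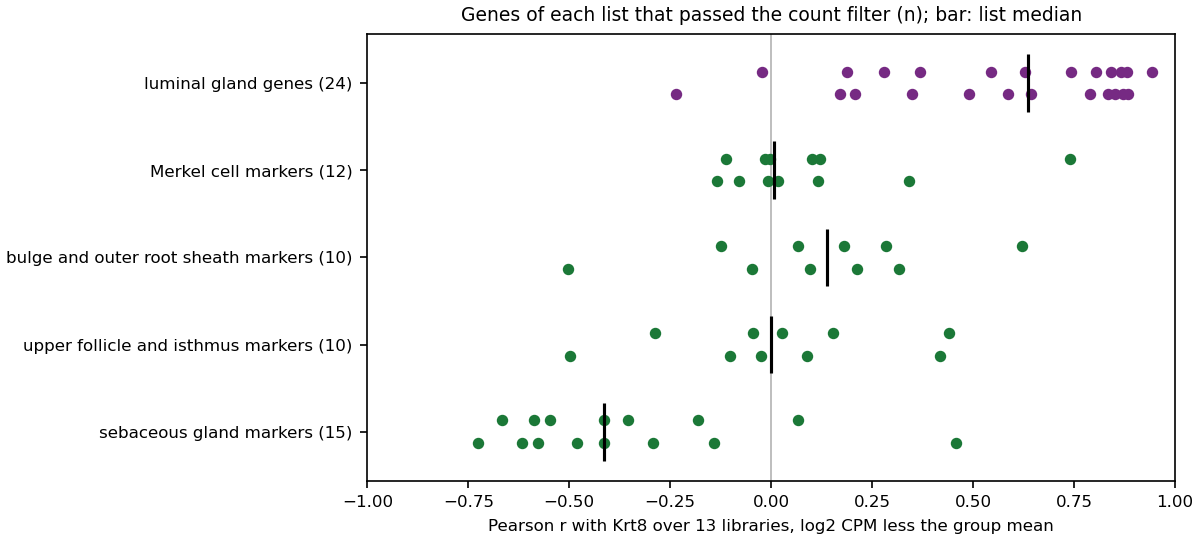
Pearson's r with Krt8 of each tested gene in 5 lists, over 13 libraries, from log2 CPM less the group mean, with a bar at each list's median. Luminal gland genes, listed after the values were seen, have a median of 0.636, and the Merkel cell, follicle and sebaceous lists have medians between -0.415 and 0.139.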

How the data were processed

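Bulk RNA of sorted interfollicular keratinocytes was sequenced in 13 libraries of 4 groups. Per the labels' protocols, libraries followed Smart-seq2, which marks neither strand nor molecule, with single-end reads of 100 bases. The authors deposited raw read counts per gene, not normalized. The submitters' processing notes name STAR, featureCounts, Subread and build GRCm38. Not given in the sources used here are their versions, the strand setting and how reads with several alignments were treated.

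Genes were kept with edgeR's filterByExpr (minimum count 10), leaving 16051 of 25746; 1394 had no count. TMM scaling and edgeR 4.0.16 quasi-likelihood tests (R 4.3.3) used 1 coefficient per group over all libraries, Benjamini-Hochberg adjustment and a threshold of 0.05. SE was taken as log2 fold change over the square root of F. For correlations, log2 CPM had a prior count of 2. Coordinates and exon lengths came from GENCODE M21, promoters from RefSeq, for 4 of 5 keratins. DESeq2 1.42.0, limma 3.58.1 voom, other scalings, filters, a replicate block and left-out libraries were alternatives. Steps were tested on simulated data. Depth limits precision: 3 counts equal 0.135 to 0.594 CPM.

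The members, gene lists and tests were chosen with earlier results of these data known. Named genes were the 5 keratins in every comparison, 4 Merkel cell genes (Atoh1, Sox2, Isl1, Piezo2), up to 3 tested genes per marker list with the smallest p, up to 6 other keratins called, and the 3 genes most like each member. Others, among them the luminal gland genes, Pou4f3 beside Krt20 and Gm10800, were picked after their values were seen. Of the further marker lists, median r with Krt8 was -2.71e-05 (upper follicle), -0.101 (hair shaft), -0.068 (basal), -0.0339 (suprabasal), -0.0651 (stress keratins), -0.0388 (linkers), -0.115 (melanocyte), -0.131 (Langerhans), -0.165 (T cell), -0.216 (fibroblast), 0.0713 (endothelial) and -0.118 (nerve).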

Additional observations from a re-analysis of the deposited data

Results flagged for a closer look

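Within the 4 untreated Il12rb2-deleted libraries, replicate 1 stood apart from the other 3 by Dixon's criterion for all 4 genes that could be tested, Krt7 at 165 CPM, Krt8 at 439 CPM, Krt18 at 399 CPM and Krt19 at 463 CPM. The gap to the next library, divided by the range, was 0.883, 0.969, 0.943 and 0.933 for these genes, beside a critical value of 0.829. For normally distributed values chance flags about 1 group in 20. The criterion was applied to CPM, not to log2 CPM, and these values are skewed, so that rate may not hold here. The 4 genes run together in these libraries, so they are not 4 separate signs. Gm10800 took 5.211% of counts in this library, and its part in these levels was not tested. Krt20 had no count in this group.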

How the results depend on the processing

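Of 738 alternative values of the keratins' differences, 689 kept direction and side of the threshold, 32 reversed, 5 lost and 12 gained a call; the causes were not tested. Gene counts after Aldara were 1132 in floxed controls (2169 with DESeq2, 270 without the 3 libraries high in Gm10800, 215 to 1451 with single libraries left out, with 215, 288, 422 and 618 without untreated replicates 2 and 3 and Aldara-treated replicates 1 and 2), 2489 in Il12rb2-deleted mice (1466 without those 3, 1650 to 2764, the lowest without untreated replicate 1) and 3994 over both (2622 without those 3, 3142 to 4004). The genotype comparisons had 0 with edgeR (0 to 0 with single libraries left out): untreated 3 with no filter on low counts and 18 with DESeq2, after Aldara 1 and 30, over both treatments 4 and 18, and 1 without the 3 libraries. The interaction had 3 with DESeq2 and 0 to 1 with a library left out (1 without untreated floxed control replicate 3).

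In floxed controls after Aldara, Krt8 reversed to -0.0675 without the 3 libraries, -2.70 without the 2 libraries highest in Krt8 (an alternative added after seeing the data) and -0.394 with limma voom, and Krt18 to -3.32 without those 2. With single libraries left out Krt7 ran from -2.88 to 0.0901, Krt8 from -2.70 to 0.954 (-0.0936 without untreated replicate 2) and Krt18 from -3.32 to 1.21. In Il12rb2-deleted mice, with no filter Krt7 (-3.75, adjusted p = 0.0390), Krt8 (-4.80, 0.0153) and Krt18 (-4.43, 0.0471) passed, and Krt8 ran from -5.32 to -1.12, passing without Aldara-treated floxed control replicate 3 (-4.88). Krt19 was at -8.42 with voom and -13.8 to -6.96 with libraries left out.

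Between untreated genotypes, Krt7, Krt8, Krt18 and Krt19 reversed to -2.33, -2.86, -2.85 and -2.77 without the 3 libraries, to -2.34, -2.71, -2.69 and -2.69 without the 2, and to -1.48, -1.10, -0.998 and -0.898 with voom. With single libraries left out they ran from -2.34 to 1.35, -2.71 to 1.45, -2.68 to 1.24 and -2.69 to 0.945 (without untreated floxed control replicate 2, Krt7 -0.247 and Krt19 -0.143). After Aldara, Krt19 passed between genotypes with DESeq2 (-8.62), and over both treatments Krt18 ran from -3.54 to 0.151. For the interaction Krt7, Krt8 and Krt18 reversed to 1.69, 1.59 and 2.25 without the 2 libraries, and Krt20 to -2.12 without the 3, its range with single libraries being -2.12 to 4.31. Aldara over both genotypes was past the threshold with no filter for Krt7 (-2.35) and Krt20 (4.69), and for Krt20 without the 3 libraries (7.41) and with DESeq2 (4.05); Krt19 was at -4.72 with voom. There Krt8 ran from -3.79 to -0.349 and Krt18 from -3.91 to -0.204, both passing at the low end without Aldara-treated floxed control replicate 3 (adjusted p = 0.0328 and 0.0486), and Krt19 from -7.31 to -3.91 and Krt20 from 3.79 to 7.31.

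DESeq2 gave no adjusted p for Krt8 and Krt18 in any comparison, nor for Krt20 between untreated genotypes. The labels do not say whether replicate numbers pair samples, and correlations over genes cannot decide it. Of 18 same-numbered pairs, 6 had r over 0.1 (-0.163 to 0.421), and 6 had their highest r with their own number. The untreated replicates 2 of both genotypes were at 0.421 and the untreated replicates 3 at 0.299. With the replicate block Krt19 was at -10.0 (edgeR adjusted p = 0.00526) in Il12rb2-deleted mice and -5.04 (0.00387) over both, no keratin call changed, and Sox9 (1.05, adjusted p = 0.0842) lost its call. All 40 alternative values of the keratins' group means moved by less than 1 SD. The SDs were wide, as for Krt8 in untreated Il12rb2-deleted libraries (mean 116.1 CPM, SD 215.3 CPM), so this measure could hardly have shown a change. Depth limits Krt20 most, which had 3 counts or fewer in 8 libraries.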
